A study of Homo sapiens with 8 samples.

Results

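The chaperones and folding enzymes of the endoplasmic reticulum (ER) were examined as a group of 34 genes. They were chosen by symbol for what their products do in the ER, with earlier results of these data known. Of the 34 genes, 32 had at least 1 probe set annotated to that gene alone and were compared, among 19775 genes measured in this way. The remaining 2, PDIA5 and TXNDC5, had only a probe set shared with another gene and are given apart. Where a gene had several such probe sets, the brightest on average stood for it.

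The RNA came from 293T cells, a line from human embryonic kidney with the large T antigen of SV40, and was measured on 8 Affymetrix arrays. The 4 groups had 2 arrays each: control cells, and cells given 10 µM EerI (Eer1 in the labels), 10 µM CBU-028 or 10 µM 5-NA for 10 h. Eeyarestatin I (EerI) blocks ER-associated degradation and binds p97 (VCP), the ATPase that pulls proteins out of the ER membrane. 5-NA (5-nitrofuryl-acrolein) stands for the nitrofuran-containing portion of EerI without its aromatic portion. CBU-028 carries the same nitrofuran-containing portion, joined to a different benzene-containing group. What the control cells received is not stated for the arrays. In the 5-NA samples the title holds an experiment number that the study lists for CBU-029, while their source and description labels say 5-NA, and every 5-NA value below rests on those other labels. The labels call the samples of a group duplicates, the methods say that cells were treated in duplicates, and a legend of the study speaks of a biological replicate. None of these says that the samples came from separate cultures, so the p-values measure only the spread between these samples, which may be technical.

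Proteins enter the ER unfolded and are met there by folding helpers. The Hsp70 chaperone BiP, encoded by HSPA5, holds on to exposed hydrophobic stretches and lets go under the control of J-domain proteins and nucleotide exchange factors. Glycoproteins pass through a cycle in which calnexin and calreticulin bind trimmed sugars, protein disulfide isomerases form and reshuffle disulfide bonds, and prolyl isomerases turn peptide bonds. When unfolded proteins pile up, 3 sensors in the ER membrane, ATF6, IRE1 (ERN1) and PERK (EIF2AK3), start the unfolded protein response. ATF6 and the spliced form of XBP1 switch on many chaperone genes through short promoter elements, the ER stress elements, while PERK raises ATF4 and its targets.

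The ER stress elements in the promoters of the members are shown first, since they are the DNA feature by which chaperone genes are best known to be switched on together. The window searched ran from 250 bases before to 50 bases after each RefSeq gene start (GRCh38.p14), on both strands, and was given for 31 of the 34 members, the others being FKBP14, PDIA3 and DNAJC1. The ER stress element (ERSE, spelled CCAAT, any 9 bases and CCACG) was found in 8 of the 31 members, against 25 of all 27305 genes with a promoter (0.0916%). The ERSE-II element (ATTGG, any base and CCACG) was found in HYOU1 and SDF2L1, against 19 of all genes (0.0696%). Since these elements are known from chaperone genes, the shares describe the list and are no result of these arrays. The matched sites are given below, each 5′ to 3′ on the strand that reads the element, with the fixed letters of the element in capitals. The sites of ERSE lay at chr9:125241391-125241409 (HSPA5, minus strand), chr12:103930216-103930234 and chr12:103930321-103930339 (HSP90B1, plus and minus), chr19:12938384-12938402 (CALR, minus), chr5:179698778-179698796 (CANX, plus), chr2:10812853-10812871 (PDIA6, minus), chr1:236282183-236282201 (ERO1B, plus), chr22:49918554-49918572 (CRELD2, minus) and chr3:150546710-150546728 (SERP1, plus). Those of ERSE-II lay at chr11:119057274-119057284 and chr11:119057380-119057390 (HYOU1, plus) and chr22:21642114-21642124 (SDF2L1, minus).
HSPA5 ERSE: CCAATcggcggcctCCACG
HSP90B1 ERSE, farther from the gene start: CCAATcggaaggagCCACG
HSP90B1 ERSE, nearer to the gene start: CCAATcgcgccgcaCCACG
CALR ERSE: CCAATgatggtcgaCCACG
CANX ERSE: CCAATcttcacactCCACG
PDIA6 ERSE: CCAATgagccgcagCCACG
ERO1B ERSE: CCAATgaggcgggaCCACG
CRELD2 ERSE: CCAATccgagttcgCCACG
SERP1 ERSE: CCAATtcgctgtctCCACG
HYOU1 ERSE-II, the same letters at both sites: ATTGGaCCACG
SDF2L1 ERSE-II: ATTGGtCCACG

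The core of the unfolded protein response element (TGACGTGG) was found in 4 members, DNAJC10, HYOU1, TXNDC11 and TXNDC5, against 253 of all genes (0.927%), and in HYOU1 it overlapped the farther ERSE-II site. The ATF4 element (TGATGNAA) was found in no member and in 1217 of all genes (4.46%). A match describes exact letters in this window and was not tested as a working site. An element with a changed letter, or one outside the window, was not counted. The 250 bases before the gene start are printed for HSPA5 and HYOU1, which differed most between the compounds among members with an element, and for DNAJB9, which moved most against control and whose window held none of the 4 elements. The capitals mark the matched elements as they read on the strand of the gene. The stretches lie at chr9:125241344-125241593 (HSPA5, minus strand), chr11:119057206-119057455 (HYOU1, minus strand) and chr7:108569624-108569873 (DNAJB9, plus strand) of GRCh38.p14.
HSPA5 promoter: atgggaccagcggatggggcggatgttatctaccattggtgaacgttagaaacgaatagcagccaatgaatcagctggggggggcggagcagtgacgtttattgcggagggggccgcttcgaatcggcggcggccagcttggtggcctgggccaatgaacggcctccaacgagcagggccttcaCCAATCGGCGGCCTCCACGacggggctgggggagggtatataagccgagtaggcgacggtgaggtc
HYOU1 promoter: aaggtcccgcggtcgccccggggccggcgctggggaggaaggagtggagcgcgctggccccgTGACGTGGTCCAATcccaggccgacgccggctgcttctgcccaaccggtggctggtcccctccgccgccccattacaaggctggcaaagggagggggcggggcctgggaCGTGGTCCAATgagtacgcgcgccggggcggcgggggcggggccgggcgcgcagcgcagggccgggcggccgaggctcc
DNAJB9 promoter: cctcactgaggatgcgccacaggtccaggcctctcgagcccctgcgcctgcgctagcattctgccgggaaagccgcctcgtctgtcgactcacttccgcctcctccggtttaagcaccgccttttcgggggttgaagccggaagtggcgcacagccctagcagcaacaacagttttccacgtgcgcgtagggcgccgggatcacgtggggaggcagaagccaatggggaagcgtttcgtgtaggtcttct

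All values below are log2 values made by the authors with the RMA algorithm, and a log2 difference of 1 is a 2-fold change in the relative level of a transcript. Arrays give the level relative to the other RNA of a sample, so in these bulk samples a loss of cells and a loss of RNA per cell cannot be told apart. Array medians were 6.89 to 6.93 on this scale. A difference was called at an adjusted p under 0.05 in limma, with Benjamini-Hochberg adjustment over all probe sets of a comparison. Of 6 markers listed for the labelled cell line, VIM, KRT18 and NEFL were at or above 12.2 on every array, KRT8 at 9.31 to 9.72, NEFM at 9.70 to 10.27 and PAX2 at 6.58 to 6.95. The B-cell markers MS4A1, CD79A, CD79B, PTPRC and PAX5 were at 7.87 or below, so PAX2 lay within their range. The control probe set for the large ribosomal RNA read 14.02 and 14.04 on the 5-NA arrays and 12.6 to 13.1 on the other arrays, and the difference between the 3′ and 5′ probe sets of ACTB, a measure of RNA integrity, was 0.178 and 0.363 on the 5-NA arrays and 0.0743 to 0.196 on the others. The ribosomal value and 1 of the ACTB values set the 5-NA arrays apart, and their part in the results for 5-NA was not tested.

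5-NA raised 7 of the 32 members and lowered 1, CBU-028 raised 3 and lowered 2, and no member was called with EerI. The J-domain co-chaperone DNAJB9 rose most, to 2.40-fold of control with 5-NA (log2 difference 1.26, SE 0.13, n = 2, limma adjusted p = 0.000567), and was the only member called past 2-fold in any comparison. Of all 19775 genes, 0.769% were called with EerI, 12.6% with CBU-028 and 18.8% with 5-NA, of which 0.506%, 5.49% and 7.87% were higher and 0.263%, 7.1% and 10.9% lower. The 5 members called with CBU-028 were 15.6% of the 32, close to the share of all genes, and the 8 called with 5-NA were 25.0%. All 32 members had a mean level above the median of all genes, with a median of 10.98 against 7.87. The shares of all genes here and below thus include many dimmer genes, and shares among genes of like level were not worked out. Beside the count of 0 from limma for EerI, an unadjusted p under 0.05 was reached by 8 members above and 3 below control. An analysis of variance fitted here to the groups gave 10 higher and 2 lower without adjustment and 0 in all with it. The study also used an analysis of variance, with terms it does not state, and its main selection asked for a change past 2-fold. With p-values adjusted over all 6 comparisons at once, 2 members were called higher with EerI, HSPA5 (limma adjusted p = 0.0245) and DNAJB9. Past 1.5-fold, 0, 1 and 3 members were called with EerI, CBU-028 and 5-NA, beside 0.531%, 3.67% and 5.21% of all genes, and past 2-fold 0, 0 and 1, beside 0.172%, 0.622% and 0.698%.

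The median difference of the 32 members was 0.11 with EerI, -0.03 with CBU-028 and 0.10 with 5-NA, beside 0.00, -0.01 and -0.03 for all genes. With single arrays left out, these medians of the members ranged from 0.0936 to 0.115, from -0.0471 to -0.0146 and from 0.0865 to 0.129. The median log2 level of the members on an array varied by 0.100 (SD) between duplicates, which is not the spread of these differences. With EerI 24 members lay above control and 8 below, with CBU-028 13 and 19, and with 5-NA 22 and 10. Of all 19775 genes, 9764 lay above and 10011 below with EerI, 9442 and 10333 with CBU-028, and 8724 and 11051 with 5-NA. The 3 comparisons share the control arrays, so these counts are not independent of each other. Leaving out control replicate 1 or 2 brought the members called to 2 or 3 for 5-NA and to 0 for CBU-028, and leaving out 5-NA replicate 2 brought those for 5-NA to 4. The calls of DNAJB9 and DNAJC3 with 5-NA held with each of the 8 arrays left out.

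**Figure D1:**
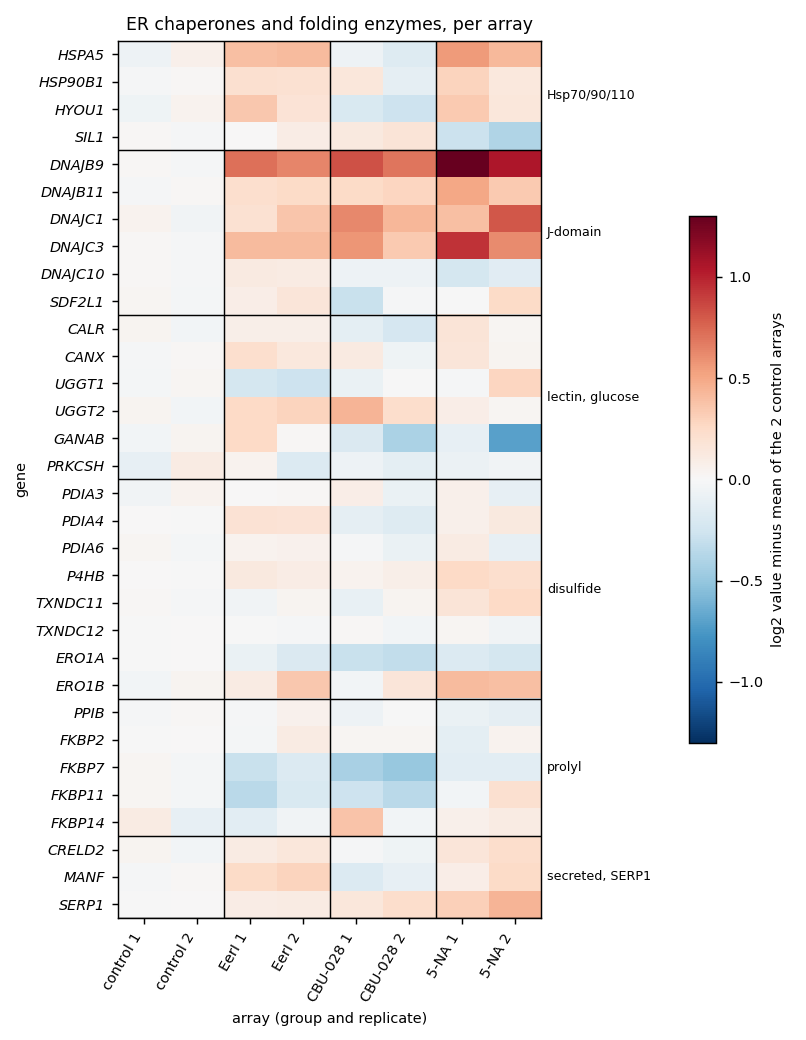
Log2 value of each member (rows, by role) on each of the 8 arrays (columns) minus the mean of the 2 control arrays of that gene, as a colour from blue (lower) to red (higher). DNAJB9, DNAJC3 and DNAJC1 are red on all 6 arrays of treated cells, and HSPA5 is red on the EerI and 5-NA arrays and pale blue on both CBU-028 arrays.

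**Figure D2:**
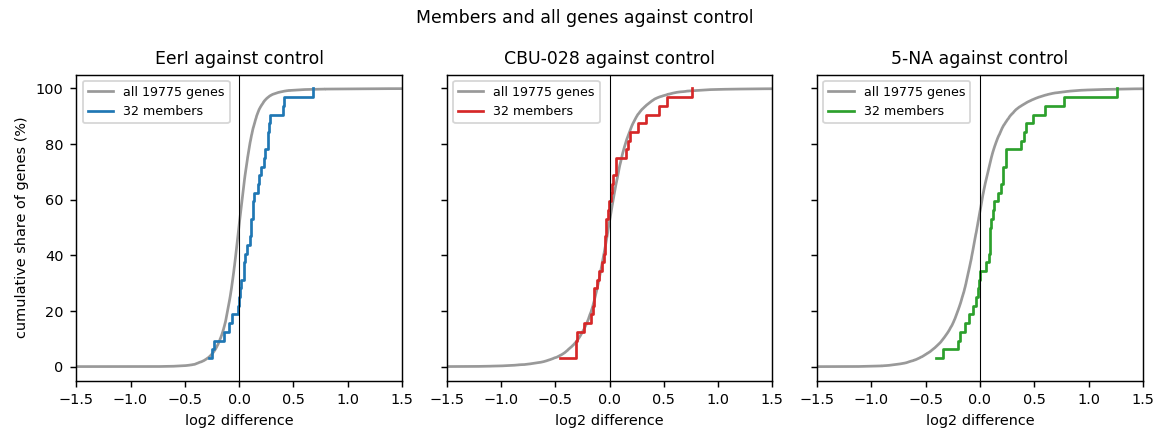
Cumulative share of genes (y axis, percent) by log2 difference from control (x axis) for the 32 members (coloured steps) and all 19775 genes (grey), in a panel for each compound; differences past 1.5 in size lie off the axis. The steps of the members lie to the right of the grey curve over most of its range with EerI and 5-NA, with medians of 0.11 and 0.10, and cross it with CBU-028, with a median of -0.03.

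The J-domain proteins, which bring unfolded clients to BiP and stir its ATPase, held most of the calls. Of the 6 measured genes of this role, counting SDF2L1 as a partner of DNAJB11, 4 were higher with 5-NA, 3 with CBU-028 and none with EerI, and none was lower with any compound. The higher members were 66.7% and 50% of the role with 5-NA and CBU-028, beside 7.87% and 5.49% of all genes. The median difference of the 6 was 0.26 with EerI, 0.36 with CBU-028 and 0.51 with 5-NA. P-values were adjusted within each comparison, so the unadjusted p needed for a call differed between compounds. DNAJB9 with EerI (limma unadjusted p = 0.000524) was not called, while DNAJC3 with CBU-028 (limma unadjusted p = 0.0040) was. Counts of calls therefore do not rank the compounds by the size of their differences.

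DNAJB9 (ERdj4), a co-chaperone that takes part in the disposal of misfolded proteins and keeps IRE1 quiet, read 9.42 and 9.39 in control cells. It read 10.12 and 10.04 with EerI, 10.23 and 10.10 with CBU-028, and 10.88 and 10.46 with 5-NA. All arrays of treated cells lay above both control arrays, those of EerI and CBU-028 overlapped, and both 5-NA arrays lay above all others. The difference from control was 0.68 with EerI (SE 0.13, limma adjusted p = 0.0714), 0.76 with CBU-028 (adjusted p = 0.00741) and 1.26 with 5-NA. A second DNAJB9 probe set gave 0.73 with EerI (limma adjusted p = 0.0187), 0.88 with CBU-028 and 1.36 with 5-NA, all called, and the third gave 0.55, 0.42 and 0.88, called with 5-NA. The call with CBU-028 was lost without control replicate 1 (0.78, adjusted p = 0.0568 in limma) and without control replicate 2 (0.75, adjusted p = 0.0601).

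DNAJC3 (p58IPK), a J-domain protein that also restrains PERK, read 10.54 and 10.51 in control cells and 10.93 and 10.94 with EerI. It read 11.10 and 10.86 with CBU-028 and 11.46 and 11.14 with 5-NA. Both 5-NA arrays lay above the others, and the EerI values fell between those of the CBU-028 duplicates. The difference from control was 0.41 with EerI (SE 0.12, limma adjusted p = 0.243), 0.46 with CBU-028 (adjusted p = 0.0444) and 0.78 with 5-NA (adjusted p = 0.00322, 1.71-fold). Of 3 further probe sets of DNAJC3, 2 were called at 1.01 and 1.02 with 5-NA and at 1.12 and 0.77 with CBU-028. The call with CBU-028 on the representative probe set was lost without either control array (0.47 and 0.45), without either EerI array (0.46) and without CBU-028 replicate 1 (0.34).

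DNAJC1, a membrane-bound J-domain protein that also contacts ribosomes, read 10.69 and 10.60 in control cells, 10.85 and 11.01 with EerI, 11.27 and 11.08 with CBU-028, and 11.04 and 11.45 with 5-NA. Every array of treated cells lay above control, and the CBU-028 and 5-NA groups overlapped. The difference was 0.28 with EerI (SE 0.14, limma adjusted p = 0.567), 0.53 with CBU-028 (adjusted p = 0.0417) and 0.60 with 5-NA (adjusted p = 0.0181). Both other probe sets of DNAJC1 were called in the same direction with CBU-028 and with 5-NA, at 0.49 to 0.71. The 5-NA call was lost without either control array (0.65 and 0.55) or the second 5-NA array (0.40), and the CBU-028 call without either control array (0.58 and 0.48), either EerI array (0.53) or CBU-028 replicate 1 (0.43).

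DNAJB11 (ERdj3), a soluble co-chaperone of BiP that is also secreted under stress, read 12.22 and 12.26 in control cells and 12.75 and 12.59 with 5-NA. The EerI arrays read 12.46 and 12.49 and the CBU-028 arrays 12.49 and 12.52, between the other groups and without overlap with them. The difference was called with 5-NA alone (0.43, SE 0.08, limma adjusted p = 0.00957), beside 0.23 with EerI and 0.26 with CBU-028, and its direct tests between compounds were not called. It was lost without either control array (0.41 and 0.44) or the first 5-NA array (0.34). The 2 genes of this role that were not called against control were DNAJC10, a J-domain protein with thioredoxin domains that reduces disulfides of proteins to be degraded (0.11, -0.07 and -0.19 with EerI, CBU-028 and 5-NA), and SDF2L1 (0.12, -0.15 and 0.12).

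**Figure D3:**
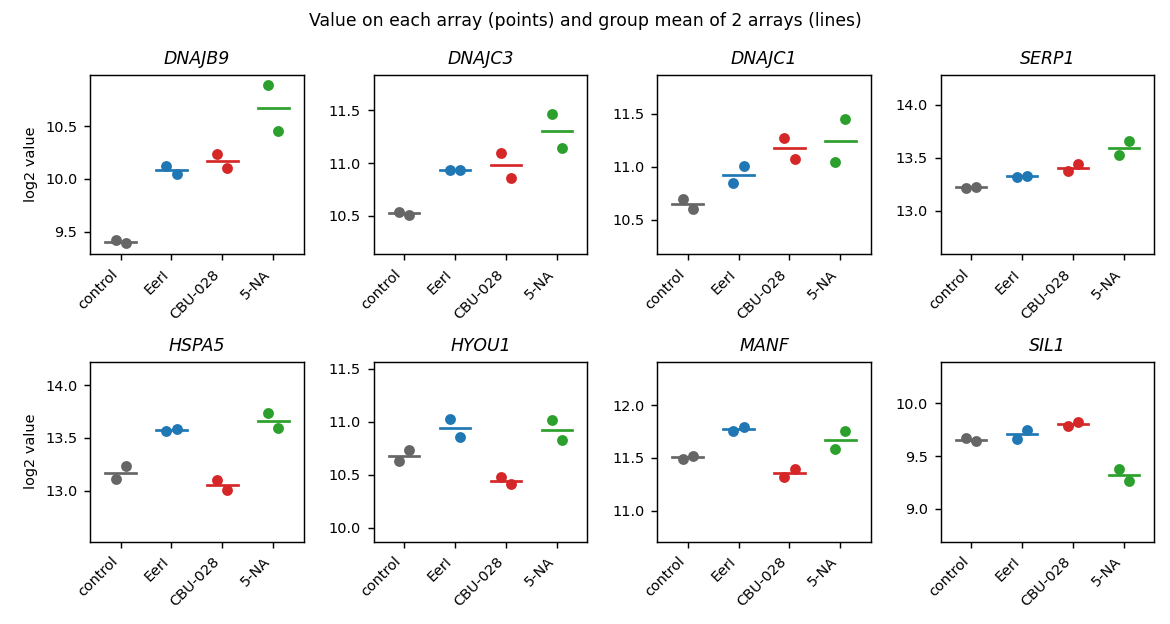
Log2 value on each array (points) and mean of the 2 arrays of a group (lines) for 8 members, each panel with its own y range. DNAJB9, DNAJC3, DNAJC1 and SERP1 lie above control on all 6 arrays of treated cells, HSPA5, HYOU1 and MANF lie below control on both CBU-028 arrays and above it on the EerI and 5-NA arrays, and SIL1 is lowest on both 5-NA arrays.

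Among the large chaperones of the ER, BiP was higher with 5-NA, and it was the member that set CBU-028 apart from the other compounds most clearly. HSPA5 read 13.11 and 13.23 in control cells, 13.57 and 13.58 with EerI, 13.10 and 13.01 with CBU-028, and 13.73 and 13.59 with 5-NA. All EerI and 5-NA arrays lay above the control and CBU-028 arrays, and both CBU-028 arrays lay below both control arrays. The difference from control was 0.49 with 5-NA (SE 0.09, limma adjusted p = 0.00656, 1.4-fold), 0.40 with EerI (adjusted p = 0.116) and -0.12 with CBU-028 (adjusted p = 0.498). The call with 5-NA was lost without control replicate 1 (0.43, limma adjusted p = 0.0732). The second HSPA5 probe set gave 0.28 with EerI, 0.04 with CBU-028 and 0.98 with 5-NA, of which the last was called.

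HSP90B1 (GRP94), the Hsp90 of the ER, read 10.84 and 10.87 in control cells, 11.06 and 11.05 with EerI, 11.00 and 10.74 with CBU-028, and 11.14 and 10.99 with 5-NA. The EerI and 5-NA arrays lay above control and the CBU-028 duplicates lay on either side of it. No difference was called, at 0.20 with EerI (limma adjusted p = 0.587), 0.02 with CBU-028 (0.954) and 0.21 with 5-NA (0.234). HSP90B1 has 2 more probe sets that it shares with the microRNA gene MIR3652 and that were left out of its counts. Both were brighter than the one used, and the brighter of them read 12.98 and 13.00 in control cells. That probe set was lower with CBU-028 than with EerI (-0.34, limma adjusted p = 0.0489) and higher with 5-NA than with CBU-028 (0.32, adjusted p = 0.029). With it standing for the gene, HSP90B1 would have been called in both of these pairs.

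HYOU1 (GRP170), a large Hsp70 relative that helps BiP to exchange its nucleotide, read 10.63 and 10.73 in control cells, 11.03 and 10.86 with EerI, 10.48 and 10.41 with CBU-028, and 11.02 and 10.82 with 5-NA. The EerI and 5-NA arrays overlapped above control and the CBU-028 arrays lay below it, although no difference from control was called (0.26, -0.24 and 0.24). SIL1, the other nucleotide exchange factor of BiP, read 9.67 and 9.64 in control cells, 9.66 and 9.75 with EerI, 9.79 and 9.82 with CBU-028, and 9.38 and 9.26 with 5-NA. Both 5-NA arrays lay below all others, and SIL1 fell by 0.34 with 5-NA (limma adjusted p = 0.0238), the only member called lower with that compound. Without control replicate 1 (-0.32), without control replicate 2 (-0.35) and without the second 5-NA array (-0.28) it was no longer called.

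The lectin chaperones and the enzymes that trim and restore glucose on glycoproteins were not called against control with any compound, in 6 measured genes. CALR (calreticulin) read 12.65 and 12.58 in control cells, 12.69 and 12.69 with EerI, 12.48 and 12.39 with CBU-028, and 12.78 and 12.63 with 5-NA, with differences of 0.08, -0.17 and 0.09. CANX (calnexin) read 13.06 and 13.08 in control cells, 13.28 and 13.21 with EerI, 13.19 and 13.01 with CBU-028, and 13.23 and 13.10 with 5-NA, with differences of 0.18, 0.03 and 0.10. The sign of CALR turned with EerI and 5-NA when probe sets ending in _x_at were left out, to -0.00269 and -0.0848, and that of CANX with CBU-028 to -0.06 without CBU-028 replicate 1. GANAB, the catalytic subunit of glucosidase II, was at -0.30 with CBU-028 and -0.41 with 5-NA, and its 5-NA duplicates lay far apart at 11.67 and 11.08. UGGT2, the less studied of the glucosyltransferases that tag misfolded glycoproteins, was at 0.27 with EerI and 0.34 with CBU-028 (limma adjusted p = 0.0509), and UGGT1, the main sensor of misfolding, at -0.25 with EerI and 0.13 with 5-NA.

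Of 8 measured enzymes of disulfide formation, 1 was higher with 5-NA and 1 lower with CBU-028, each 12.5% of the role, beside 7.87% and 7.1% of all genes called in those directions. ERO1B, an oxidase that recharges the disulfide isomerases, read 7.97 and 8.04 in control cells, 8.11 and 8.35 with EerI, 7.97 and 8.16 with CBU-028, and 8.41 and 8.40 with 5-NA. Both 5-NA arrays lay above all others, and the difference was 0.40 with 5-NA (SE 0.11, limma adjusted p = 0.0321), with 0.91 on its other probe set. That call was lost without either control array (0.37 and 0.44) and without either 5-NA array (0.40 and 0.41). ERO1A, the more widely used oxidase, read 11.55 and 11.56 in control cells, 11.47 and 11.37 with EerI, 11.26 and 11.23 with CBU-028, and 11.37 and 11.33 with 5-NA. All arrays of treated cells lay below control, and ERO1A fell by 0.31 with CBU-028 (limma adjusted p = 0.0404), a call that held with none of the 8 arrays left out (-0.32 to -0.29) and that its other probe sets did not share (-0.04 and 0.02).

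P4HB, the founding protein disulfide isomerase, read 12.90 and 12.89 in control cells, 13.02 and 12.99 with EerI, 12.94 and 12.97 with CBU-028, and 13.16 and 13.11 with 5-NA. Every array of treated cells lay above control, and the difference of 0.24 with 5-NA missed the threshold (limma adjusted p = 0.0618). PDIA3 (ERp57), which works with calnexin and calreticulin, was at 0.01, 0.00 and -0.02 with EerI, CBU-028 and 5-NA, with 95% intervals that all lay within -0.235 and 0.226. Its dimmer probe sets disagreed and were called higher with 5-NA, at 0.43 and 0.53 (limma adjusted p = 0.00887 and 0.00839). PDIA4 and PDIA6, chaperone-like isomerases that bind BiP or its clients, were at 0.18 and 0.05 with EerI, -0.14 and -0.05 with CBU-028, and 0.10 and 0.00 with 5-NA. TXNDC11 (0.00, -0.03 and 0.21) and TXNDC12 (-0.01 with each compound) were not called, although a probe set that TXNDC12 shares with KTI12 was higher with 5-NA (0.43, limma adjusted p = 0.006). The shared probe set of PDIA5 was at 0.09, -0.08 and -0.15 with EerI, CBU-028 and 5-NA, and that of TXNDC5 at 0.03, 0.01 and 0.03, none called.

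Of the 5 prolyl isomerases, FKBP7 was lower with CBU-028 and no other was called against control. FKBP7, which binds BiP, read 8.71 and 8.66 in control cells, 8.40 and 8.51 with EerI, 8.26 and 8.20 with CBU-028, and 8.55 and 8.55 with 5-NA. No array of treated cells reached control, the CBU-028 arrays were lowest, and FKBP7 fell by 0.46 with CBU-028 (limma adjusted p = 0.00858). Its other probe sets gave -0.24 and -0.30 with CBU-028, neither called, and the call was lost without control replicate 1 (-0.43) or control replicate 2 (-0.48). FKBP11, a membrane-bound isomerase of secretory cells, was at -0.27 with EerI, -0.31 with CBU-028 and 0.08 with 5-NA. PPIB (cyclophilin B), FKBP2 and FKBP14 lay within 0.17 of control with each compound, in either direction.

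The last role held 2 secreted ER stress proteins and SERP1, a small protein of the translocon that steadies new membrane proteins under stress. SERP1 read 13.22 and 13.23 in control cells, 13.32 and 13.33 with EerI, 13.37 and 13.45 with CBU-028, and 13.53 and 13.66 with 5-NA. The groups did not overlap and followed the order control, EerI, CBU-028, 5-NA. The difference was called with 5-NA (0.37, SE 0.08, limma adjusted p = 0.0149) and not with EerI (0.10) or CBU-028 (0.19). Of its other probe sets, 2 were called at 0.38 and 0.40 with 5-NA, and the dimmest was at -0.24 and not called. Leaving out either control array (0.37 and 0.38) or the second 5-NA array (0.31) ended the call.

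MANF, a secreted protein that binds BiP, read 11.49 and 11.52 in control cells, 11.75 and 11.79 with EerI, 11.32 and 11.40 with CBU-028, and 11.59 and 11.76 with 5-NA. As for HSPA5 and HYOU1, the CBU-028 arrays lay below control and the EerI and 5-NA arrays above it, and no difference from control was called (0.27, -0.14 and 0.17). CRELD2, a secreted protein with isomerase-like motifs, was at 0.13, -0.04 and 0.19 with EerI, CBU-028 and 5-NA, also without a call.

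The 3 pairs of compounds were then compared directly at the matched dose and time. Any 2 of these comparisons share the arrays of 1 compound, so their results are not independent of each other. CBU-028 lay below EerI for HSPA5, HYOU1 and MANF, 5-NA lay above both other compounds for DNAJB9 and FKBP11, and SIL1 was lower with 5-NA than with either. Of the 32 members, 3 were called between CBU-028 and EerI, all lower, beside 3.73% of all genes (1.6% higher and 2.13% lower). Between 5-NA and EerI, 3 were higher and 2 lower, beside 17.6% of all genes (7.93% and 9.66%). Between 5-NA and CBU-028, 5 were higher and 1 lower, beside 13.8% of all genes (6.47% and 7.33%). The shared HSP90B1 probe set called in the first and last of these pairs is outside these counts. The share of members called was thus 9.38%, 15.6% and 18.8%, of which the second lay below the share of all genes and the others above it. The share of all genes is again taken over genes with a lower median level than the members. With p-values adjusted over all 6 comparisons at once, the counts were 4, 3 and 6. Past 1.5-fold the counts were 0, 1 and 1, beside 1.05%, 4.62% and 3.53% of all genes, and no member passed 2-fold between compounds, beside 0.101%, 0.642% and 0.389%.

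HSPA5 was 0.52 lower on the log2 scale with CBU-028 than with EerI (1.43-fold, 95% interval of the difference -0.719 to -0.319, limma adjusted p = 0.0209) and 0.61 higher with 5-NA than with CBU-028 (1.52-fold, interval 0.406 to 0.805, adjusted p = 0.00397). The second of these held with each of the 8 arrays left out, and the first was lost without EerI replicate 1 (-0.53) or EerI replicate 2 (-0.51). HYOU1 differed in the same pairs, at -0.50 (limma adjusted p = 0.0341) and 0.48 (adjusted p = 0.0171). The latter was lost without 5-NA replicate 1 alone (0.38), and the former held only without a 5-NA array, with -0.42 and -0.58 without the EerI arrays. MANF was at -0.41 for CBU-028 against EerI (limma adjusted p = 0.0395) and 0.31 for 5-NA against CBU-028 (adjusted p = 0.0511), the first of which was lost without either control array (-0.41), either EerI array (-0.43 and -0.39) or CBU-028 replicate 1 (-0.38). On the second HSPA5 probe set the difference between CBU-028 and EerI was -0.24 and was not called, and that between 5-NA and CBU-028 was 0.94 and was called.

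EerI and 5-NA, which differ by the aromatic portion of EerI, were not told apart for HSPA5, with a difference of 0.09 (95% interval -0.113 to 0.286), for HYOU1 (-0.02, interval -0.247 to 0.202) or for MANF (-0.10, interval -0.297 to 0.0925). The intervals for CALR (-0.175 to 0.21), CANX (-0.285 to 0.126) and HSP90B1 (-0.228 to 0.237) also held 0 and left out differences past 0.3 in either direction, whereas the dimmer HSPA5 probe set was higher with 5-NA than with EerI (0.70, limma adjusted p = 0.00295). They differed for DNAJB9, 0.59 higher with 5-NA (1.5-fold, interval 0.294 to 0.879, limma adjusted p = 0.0173), and for SIL1 (-0.39, interval -0.572 to -0.203, adjusted p = 0.0141). The call of DNAJB9 was lost without EerI replicate 1 (0.63), EerI replicate 2 (0.55) or 5-NA replicate 1 (0.37), and that of SIL1 without EerI replicate 1 (-0.43), EerI replicate 2 (-0.34) or 5-NA replicate 2 (-0.33).

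The other members called between 5-NA and EerI were UGGT1 (0.38, limma adjusted p = 0.0408), FKBP11 (0.36, adjusted p = 0.0476) and DNAJC10 (-0.30, adjusted p = 0.0313). Each was lost without either control array, at the same values, and without either EerI array (0.36 to 0.40 for UGGT1, 0.28 and 0.43 for FKBP11, -0.30 for DNAJC10). UGGT1 and FKBP11 were also lost without 5-NA replicate 2 (0.23 and 0.24), and DNAJC10 without 5-NA replicate 1 (-0.26) or 5-NA replicate 2 (-0.34). Other probe sets gave opposite signs for UGGT1 (-0.04 and -0.10) and DNAJC10 (0.06), none of them called. With p-values adjusted over all 6 comparisons, UGGT1 and FKBP11 were no longer called.

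Between 5-NA and CBU-028, SIL1 was at -0.49 (interval -0.67 to -0.301, limma adjusted p = 0.00707), which held with each array left out. DNAJB9 was at 0.50 (adjusted p = 0.0401 in limma), FKBP11 at 0.39 (adjusted p = 0.0411) and FKBP7 at 0.32 (adjusted p = 0.0356). Each of these 3 held with only 1 of the 8 arrays left out, and without the others it lay at 0.29 to 0.57 for DNAJB9, 0.27 to 0.43 for FKBP11 and 0.29 to 0.32 for FKBP7. CBU-028 and EerI were not told apart for DNAJB9 (0.08, interval -0.208 to 0.377) or DNAJC3 (0.05, interval -0.224 to 0.316), and these intervals allow differences of up to 0.377 in size. Of the members not called between CBU-028 and EerI, PDIA4 came closest to the threshold, at -0.32 (limma adjusted p = 0.059).

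**Figure D4:**
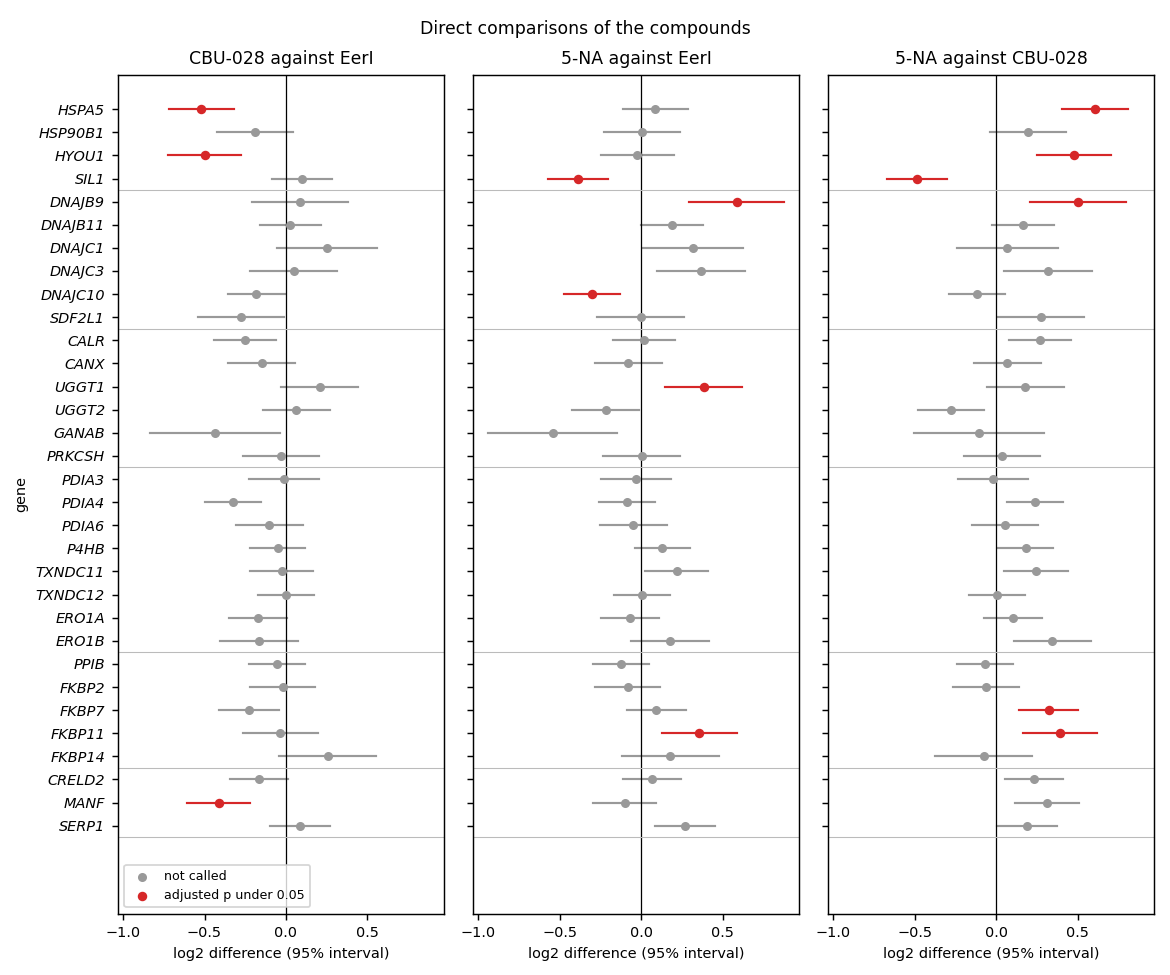
Log2 difference (points, x axis) with its 95% interval (lines) for each of the 32 members (y axis) in the direct comparison of each pair of compounds, with calls in red. CBU-028 lies below EerI for HSPA5 (-0.52), HYOU1 (-0.50) and MANF (-0.41), and 5-NA lies above CBU-028 for HSPA5 (0.61), DNAJB9 (0.50) and HYOU1 (0.48) and below it for SIL1 (-0.49).

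The 10 measured members with an ERSE or ERSE-II in the promoter window can be set beside the 19 with a window and no exact match of either. The 19 may still hold elements with a changed letter or outside the window. For CBU-028 against EerI, 9 of the 10 lay below 0, with a median of -0.18, and 12 of the 19, with a median of -0.03, beside -0.01 for all genes. Of all 19775 genes, 10362 lay below 0 in that comparison. For 5-NA against CBU-028 all 10 lay above 0, with a median of 0.25, and 13 of the 19, with a median of 0.16, beside 9145 of all 19775 genes above 0. For 5-NA against EerI the medians were 0.01 and 0.00. Against control, the 10 lay above 0 in 10 cases with EerI, 4 with CBU-028 and 10 with 5-NA, with medians of 0.15, -0.05 and 0.20. The 19 lay above 0 in 12, 7 and 10 cases, with medians of 0.05, -0.03 and 0.06. The exception for CBU-028 against EerI was SERP1 (0.08). Of the 10, HSPA5 and HYOU1 were called lower in that comparison. MANF, whose window held no exact match of either element, was the third such member. A probe set of HSP90B1 shared with MIR3652 was also called lower there. These counts and medians were not tested. CBU-028 against EerI and 5-NA against CBU-028 rest on the same CBU-028 arrays, so their patterns are not independent of each other.

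**Figure D5:**
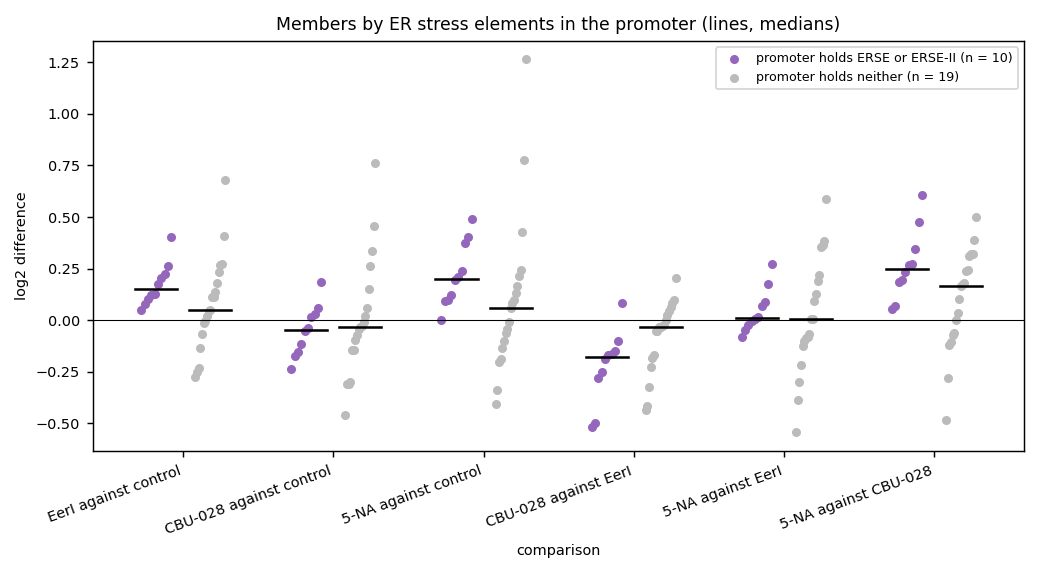
Log2 difference (y axis) of each member (points) in the 6 comparisons (x axis), for the 10 members with an ERSE or ERSE-II match (purple) and the 19 with a promoter window and neither (grey), with medians as black lines. For CBU-028 against EerI 9 of the 10 purple points lie below 0 (median -0.18), and for 5-NA against CBU-028 all 10 lie above it (median 0.25). Both of these comparisons rest on the same CBU-028 arrays.

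Other genes of the ER stress pathways were read from lists beside the members. XBP1, itself a target and a driver of the response with an ERSE in its promoter window, was higher with EerI (1.12), CBU-028 (1.28) and 5-NA (0.89), and HERPUD1, an ERAD membrane protein with an ERSE-II, by 1.32, 1.24 and 1.07, all called. The HERPUD1 values of the 6 arrays of treated cells lay between 12.03 and 12.47, against 11.05 and 11.12 in control cells. Of 12 measured sensors and transcription factors of ER stress, 4 were higher with EerI, 6 with CBU-028 and 6 with 5-NA, and 2 were lower with 5-NA, MBTPS2 and CREB3L2 (-0.36). These were 33.3%, 50% and 66.7% of the list, beside 0.769%, 12.6% and 18.8% of all genes. Among them DDIT3 (CHOP), a target of ATF4, was at 1.82, 2.36 and 1.55, ATF3 at 1.87, 2.84 and 2.03 and ATF4 at 0.78, 0.64 and 0.48 for EerI, CBU-028 and 5-NA. HSPA5 with CBU-028, at -0.12, stood beside a DDIT3 at its highest of the 3 compounds, and DDIT3 was higher with CBU-028 than with EerI (0.54, limma adjusted p = 0.032). A relation between these levels was not tested.

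The sensors themselves differed. The IRE1 gene ERN1 was higher with CBU-028 (0.89) and 5-NA (1.10) but at 0.29 and not called with EerI, and the PERK gene EIF2AK3 was at 0.46, 0.40 and 0.71, called with CBU-028 and 5-NA. ATF6 was not called against control (0.28, 0.21 and -0.13), and with 5-NA it was lower than with EerI (-0.41, limma adjusted p = 0.01) and than with CBU-028 (-0.34, adjusted p = 0.0278). MBTPS2, the site-2 protease that frees the active part of ATF6, fell by 0.56 with 5-NA (adjusted p = 0.00216 in limma), with -0.67 against EerI and -0.45 against CBU-028, both called. HSPA5 was higher with 5-NA, where the transcripts of ATF6 and MBTPS2 were at their lowest mean levels of the 4 groups. Cleavage of the ATF6 protein was not measured, and a relation between these levels was not tested.

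Of 18 measured genes of the ERAD machinery, 1 was higher with EerI, 3 with CBU-028 and 4 with 5-NA, and none lower. These were 5.56%, 16.7% and 22.2% of the list, beside 0.769%, 12.6% and 18.8% of all genes. Besides HERPUD1 the genes called were DERL2 (0.35 and 0.42) and SELENOS (0.40 and 0.32) with CBU-028 and 5-NA, and DERL1 (0.36) with 5-NA. VCP, which encodes p97, was not called against control (-0.04, -0.13 and 0.27), and with 5-NA it was higher than with CBU-028 (0.40, limma adjusted p = 0.0157) and than with EerI (0.31, adjusted p = 0.0348). Of 21 genes of ER import and N-glycosylation, 1 was higher with 5-NA (SEC62, 0.35), 1 lower with CBU-028 (SPCS3, -0.40) and none called with EerI, a share of 4.76% with each of CBU-028 and 5-NA that lay below that of all genes. Of 16 measured chaperones of the cytosol, 7 were higher and none lower with 5-NA (43.8%, beside 18.8% of all genes). With CBU-028 DNAJB6 was higher (0.57) and HSPB1 lower (-0.33), 12.5% of the list beside 12.6% of all genes, and none was called with EerI. HSPA6, a heat-inducible Hsp70, read 6.84 and 6.90 in control cells, 7.29 and 7.16 with EerI, 6.96 and 7.20 with CBU-028, and 10.16 and 9.73 with 5-NA, a difference of 3.08 for 5-NA (limma adjusted p = 1.75e-05). HSPA1L, another Hsp70, was higher by 1.14 with 5-NA. DNAJB1, the cytosolic J-domain protein that works with such Hsp70 proteins, was at 0.27, 0.00 and 1.35 and BAG3, a nucleotide exchange factor, at -0.08, -0.25 and 1.10. Transcripts for J-domain proteins of both compartments were thus higher with 5-NA, among them DNAJB9 and DNAJB1, while DNAJC10 was at -0.19 and not called. Among exchange factors, BAG3 of the cytosol was higher and SIL1 of the ER lower, and HYOU1 of the ER was at 0.24 and not called.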

How the data were processed

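RNA of 293T cells (4 groups of 2 samples) was hybridized to Affymetrix arrays. The deposited log2 values were made by the authors with RMA, which corrects for background, gives every array the same distribution and combines the probes of a probe set. The labels also name Partek, and versions are not given in the sources used here. The 54675 probe sets are those of HG-U133 Plus 2.0, although the methods name another HG-U133 array. Since RMA shares 1 distribution, array medians cannot gauge signal, and the number of arrays limits the precision.

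Symbols came from the platform annotation, updated through gene identifiers. Group means were fitted with limma 3.58.1 (R 4.3.3) over all 8 arrays and all probe sets, with 4 residual and 5.08 prior degrees of freedom and a median SE of 0.0990, so each test uses a spread pooled over groups. Duplicates of the groups had a residual SD of 0.0921 (control), 0.0974 (EerI), 0.163 (CBU-028) and 0.119 (5-NA). The procedure was tested on simulated data. Same-numbered arrays did not deviate together. Members and gene lists were chosen with earlier results of these data known, and no list was tested as a set. Values in full are given for members called against control and for HSPA5, HSP90B1, CALR, CANX and P4HB. HYOU1, MANF and the members called only between compounds were added after their values were seen, as were the 3 printed promoters. From each other list XBP1, ATF6, ATF4, DDIT3, HERPUD1 and up to 3 further called genes with the largest differences in each of the 6 comparisons may be named. Promoter sequences are from RefSeq (GRCh38.p14, 35116 promoters). Python 3.11.15 with matplotlib 3.10.9 drew the figures.

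The alternatives began with an analysis of variance fitted here to the groups, since the study named that test without its terms. Further ones were renewed quantile normalization or median centring of the arrays, means of probe sets, and dropping those ending in _x_at or dim ones. A replicate block, fits to the compared groups without the others, a prior variance with a trend and variance weights per group were also run. The last were adjustment over all comparisons, fold thresholds, and leaving out each array. The quantitative PCR, the immunoblots and the p97 knock-down of the study were not analysed here.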

Additional observations from a re-analysis of the deposited data

How the results depend on the processing

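No called difference of a member turned its sign under any alternative run. No median difference of the members moved by more than 0.100, the duplicate SD of their median log2 level. That limit is close to or larger than most of these medians, so it says little about their stability. For 5-NA against CBU-028 the median was 0.178, and 0.118 with means of all probe sets. Of the 27 called differences, DNAJB9 for 5-NA against control and HSPA5 for 5-NA against CBU-028 stayed called under all 21 alternatives that give each gene a value. Over all 27, leaving out single arrays kept 120 calls and lost 96, and the other alternatives kept 295 and lost 56. Among the members described in full that were not called, CALR turned to -0.00269 with EerI and -0.0848 with 5-NA without probe sets ending in _x_at, and to -0.00579 with 5-NA as the mean of its probe sets. HSP90B1 with CBU-028 turned to -0.122 as the mean of its probe sets, and ranged from -0.117 without CBU-028 replicate 1 to 0.148 without CBU-028 replicate 2, as CANX did from -0.05645 to 0.117.

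The counts of members called were 0, 5 and 8 for EerI, CBU-028 and 5-NA against control, and 3, 5 and 6 for CBU-028 against EerI, 5-NA against EerI and 5-NA against CBU-028. In that order of the 6 comparisons, the counts by the unadjusted analysis of variance were 12, 10, 16, 9, 11 and 16. Its adjusted form gave 2, 0 and 2 for CBU-028 against control, CBU-028 against EerI and 5-NA against EerI. A fold change of at least 1.5 left 0, 1, 3, 0, 1 and 1, and of at least 2 left 0, 0, 1, 0, 0 and 0. A floor at a mean log2 value of 7 gave 2, 8, 8 and 13 for EerI, CBU-028 against control, 5-NA against EerI and 5-NA against CBU-028, where fewer probe sets were tested. A trend in the prior variance gave 2, 8, 5, 9 and 12 for EerI, CBU-028 against control and the 3 pairs of compounds. Weights for the variance of each group gave 3, 2, 1, 8 and 2, and fits of the 2 compared groups alone, with fewer samples, 1, 2, 0, 3 and 1 for the same comparisons. Means of all probe sets gave 2 for EerI and 8 for 5-NA against EerI, and adjustment over all 6 comparisons 2 and 3. The cause of these shifts was otherwise not tested.

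With 1 array left out at a time, the counts ranged from 0 to 1 for EerI, 0 to 5 for CBU-028 and 2 to 9 for 5-NA against control, and from 0 to 3, 0 to 7 and 3 to 5 for CBU-028 against EerI, 5-NA against EerI and 5-NA against CBU-028. The lowest came without either control array for CBU-028, without control replicate 1 for 5-NA (2, and 3 without control replicate 2) and without either EerI array for CBU-028 against EerI and 5-NA against EerI. The group left with 1 array is then assumed to vary like the others.

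Replicate numbers do not pair the samples by any label, and the deviations of same-numbered arrays correlated between -0.146 and 0.146. With a replicate block, 3 members were called for CBU-028 against control and 22 of the 27 calls remained. With the numbers of the EerI arrays crossed, an alternative chosen after seeing the data, 23 remained and the counts were 0, 4, 8, 3, 5 and 5.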
